A study of Rattus norvegicus with 14 samples.

Results

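The glucuronidation genes of rat liver were compared between rats on a standard diet with and without a rosemary extract. The genes were those whose symbol is Ugt followed by a digit, which encode UDP-glycosyltransferases, together with Ugdh and Ugp2, which supply their sugar donor. They were taken from array probes annotated with exactly 1 gene symbol. This gave 10 of the 14506 genes measured in this way, namely 8 Ugt genes and the 2 supply genes, each with 1 probe. The animals were 14 female lean Zucker rats of about 15 weeks, all heterozygous for the fa allele of the leptin receptor gene (fa/+). The control group of 7 rats ate the standard diet for 64 days, and the extract group of 7 rats ate it with 0.05% of the extract by weight. Carnosic acid, a phenolic diterpene of rosemary, made up 40% of the extract. The series title gives 0.5% in place of 0.05%, and the dose of the sample labels is used here. One array was hybridised per rat with total liver RNA, so each value is that of a separate animal. Values are on the log2 scale after RMA, which adjusts for background, brings arrays to 1 distribution and combines the probe signals of each transcript.

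Glucuronidation attaches glucuronic acid to drugs, steroids, bile acids, bilirubin and plant phenols, which makes them soluble enough to leave the liver in bile or blood. The UDP-glucuronosyltransferases sit in the membrane of the endoplasmic reticulum and take the sugar from UDP-glucuronate. Ugp2 encodes the pyrophosphorylase that makes UDP-glucose from glucose 1-phosphate, and Ugdh the dehydrogenase that oxidises UDP-glucose to UDP-glucuronate. Rats also turn free glucuronate into vitamin C. Enzymes of the Ugt1 family are made from alternative first exons joined to common exons, whereas each Ugt2b enzyme has a gene of its own.

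In the RefSeq gene table (assembly GRCr8) Ugt2a1, Ugt2a3, Ugt2b, Ugt2b37, Ugt2b35, Ugt2b7 and Ugt2b1 lie in this order on chromosome 14, in a cluster that also holds Ugt2b15. Ugdh and Ugp2 lie elsewhere on the same chromosome, and Ugt8 on chromosome 2. The table names 21 protein-coding Ugt genes. Of these, 8 had a probe of their own, 9 were named only by probes shared between several genes, and 4 (Ugt3a1, Ugt2b7l1, Ugt2b10 and Ugt2b34l1) were not analysed here. RefSeq promoter windows, from 250 bases before to 50 after the start that the promoter table gives for a gene, were found for 9 of the 10 genes, all but Ugt2a1. In 3 of the 9 that start lies inside the annotated gene, so that 38 of the 250 bases before it are gene sequence in Ugdh, 52 in Ugt2b35 and all 250 in Ugp2, whose window is therefore gene body and is not printed. The 5 windows below belong to Ugdh, Ugt2a3, Ugt2b37 and Ugt2b1, which rose with the extract, and to Ugt2b, which did not pass the test and was chosen after its value was seen. Only the part before the annotated gene is printed, on the + strand of GRCr8. Capitals mark the motifs searched for on both strands. These were TGACNNNGC (the core of the antioxidant response element), GCGTG (the core of the xenobiotic response element), the HNF1 motif and its first letters GTTAAT, and the nuclear receptor core sequences AGGTCA and AGTTCA. The positions are chr14:43202268-43202479 for Ugdh, chr14:20851720-20851969 for Ugt2a3, chr14:20985199-20985448 for Ugt2b, chr14:21171886-21172135 for Ugt2b37 and chr14:21378632-21378881 for Ugt2b1.
Ugdh: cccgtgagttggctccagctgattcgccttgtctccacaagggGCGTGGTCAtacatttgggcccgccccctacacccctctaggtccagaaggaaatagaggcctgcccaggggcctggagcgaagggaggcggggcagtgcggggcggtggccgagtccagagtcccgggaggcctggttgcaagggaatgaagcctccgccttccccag
Ugt2a3: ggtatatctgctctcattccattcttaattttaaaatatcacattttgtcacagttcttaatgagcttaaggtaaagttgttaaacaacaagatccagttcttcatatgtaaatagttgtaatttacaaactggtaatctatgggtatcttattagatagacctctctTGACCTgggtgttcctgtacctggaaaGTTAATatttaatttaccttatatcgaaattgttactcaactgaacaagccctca
Ugt2b: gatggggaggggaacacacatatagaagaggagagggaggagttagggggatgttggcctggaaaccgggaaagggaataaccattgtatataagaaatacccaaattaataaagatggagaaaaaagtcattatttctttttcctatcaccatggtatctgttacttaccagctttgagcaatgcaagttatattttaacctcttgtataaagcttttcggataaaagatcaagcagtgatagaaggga
Ugt2b37: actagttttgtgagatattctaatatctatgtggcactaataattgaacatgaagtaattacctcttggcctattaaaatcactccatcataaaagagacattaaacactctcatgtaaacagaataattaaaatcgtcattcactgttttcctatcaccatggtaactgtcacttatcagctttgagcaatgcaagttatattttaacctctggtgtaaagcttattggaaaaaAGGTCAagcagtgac
Ugt2b1: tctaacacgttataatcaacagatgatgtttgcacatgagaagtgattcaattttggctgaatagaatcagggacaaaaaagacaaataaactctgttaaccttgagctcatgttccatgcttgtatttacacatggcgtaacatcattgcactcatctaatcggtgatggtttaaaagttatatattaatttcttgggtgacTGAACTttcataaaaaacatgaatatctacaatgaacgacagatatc

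The antioxidant response element core occurred in 1 of the 9 windows, that of Ugdh, where it lay on the reverse strand and overlapped the xenobiotic response element core. Of all 33469 RefSeq promoter windows of this length, 12.1% hold the first and 29.7% the second. The xenobiotic response element core occurred in 3 of the 9 windows, those of Ugdh, Ugp2 and Ugt8, and the match in Ugp2 lies within the annotated gene. The first nuclear receptor core, AGGTCA, was in 2 of the 9 windows (16.2% of all), those of Ugt2a3 and Ugt2b37. The second was in 1 (14.5% of all), that of Ugt2b1. The first letters of the HNF1 motif were in 1 (7.45% of all), that of Ugt2a3, and the whole motif in 0 (0.0448% of all). A match is a run of letters and does not by itself mark a bound site. Only exact matches were counted, and near matches to a motif were not searched for. The windows of Ugt2b, Ugt2b37, Ugt2b35 and Ugt2b7 share an unbroken run of 25 bases, of which the Ugt2b1 window holds only a part. It was found after the windows had been read.
Shared run: tgagcaatgcaagttatattttaac
Relative to the start in the promoter table the run begins at -74 in Ugt2b, -66 in Ugt2b37, -87 in Ugt2b35 and -90 in Ugt2b7. In Ugt2b35 the annotated gene begins 52 bases before that start, so the run lies nearer to the annotated gene there than -87 says. It occurs in 7 of the 33469 windows, and the others belong to Ugt2b15, Ugt2b7l1 and an unnamed locus. The longest run that the Ugt2b1 window shares with these 4 is 9 bases long (aagttatat). It lies within the run of 25 and begins at -74 in Ugt2b1, against -64 in Ugt2b. Whether the Ugt2b1 window holds a changed form of the longer run was not tested. Genes with the run were found among those that rose with the extract (Ugt2b35, Ugt2b37) and among those that did not pass (Ugt2b, Ugt2b7).

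Transcripts of both UDP-glucuronate supply genes and of 4 of the 8 transferase genes were more abundant in the livers of extract-fed rats. Expression of Ugdh was 2.02-fold and of Ugp2 1.91-fold that of controls, and Ugt2b37, Ugt2a3, Ugt2b35 and Ugt2b1 rose 1.30- to 1.53-fold. In limma's moderated test with Benjamini-Hochberg adjustment over all 14506 genes, 6 of the 10 genes passed an adjusted p of 0.05 upward and 0 downward. Over all genes tested, 2.00% passed upward and 1.15% downward. The median log2 fold was 0.39 over the 10 genes and 0.00 over all genes. At an unadjusted p under 0.05, 8 of the 10 were higher (7.45% of all genes) and 0 lower (7.40% of all genes), and an unequal-variance test per gene called 4 higher (Ugdh, Ugp2, Ugt2b1 and Ugt2a1; 1.18% of all genes) and 0 lower (0.386% of all genes). The 4 genes that did not pass were Ugt2a1, Ugt2b, Ugt2b7 and Ugt8.

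**Figure D1:**
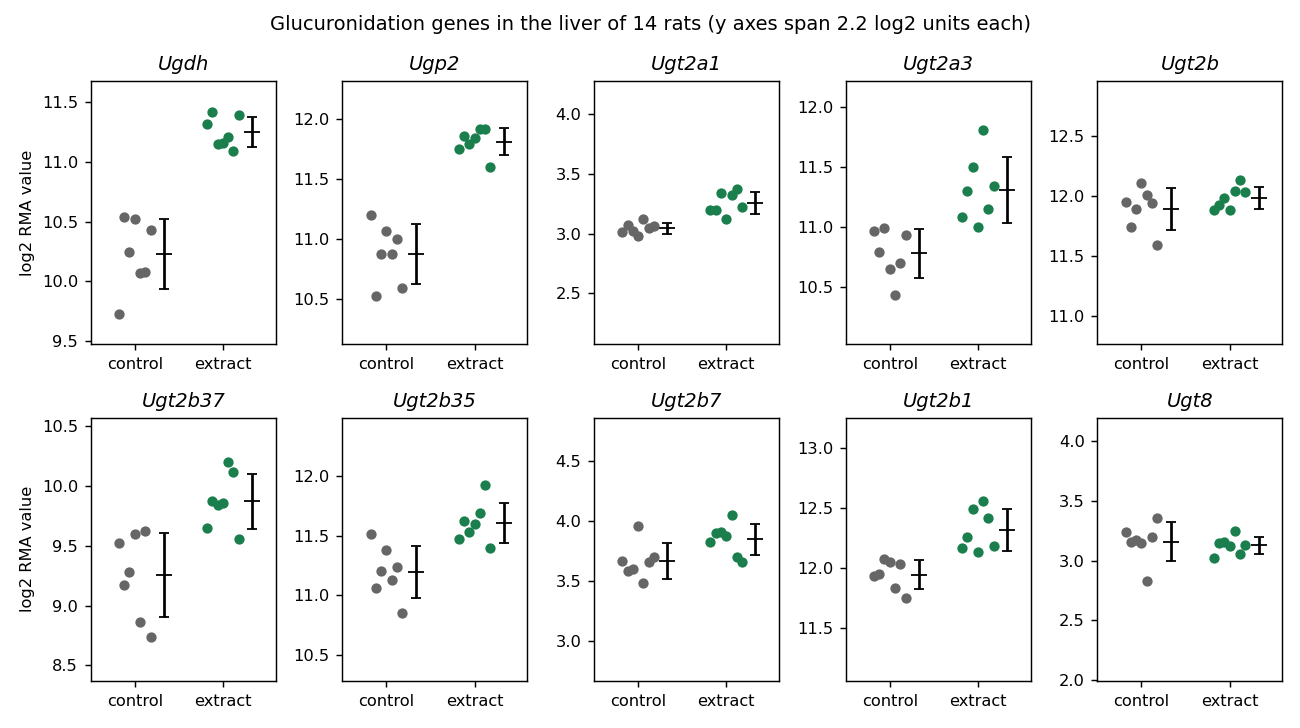
Log2 RMA values of the 10 glucuronidation genes (y axis) in 7 control and 7 extract rats (points), with the mean and SD of each group as a bar. Every panel spans the same number of log2 units. The gap of Ugdh and Ugp2 can thus be compared with the smaller shifts of Ugt2a3, Ugt2b37, Ugt2b35 and Ugt2b1, and with Ugt2b. The groups overlap in Ugt2b and, to a lesser extent, in Ugt2b37 and Ugt2b35.

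Ugdh values in controls had a lowest, median and highest of 9.73, 10.25 and 10.54, and in extract rats of 11.09, 11.21 and 11.42. Every extract rat lay above every control, with 0.55 between the highest control and the lowest extract rat. Group means were 10.23 ± 0.29 and 11.25 ± 0.13 (SD, n = 7 each). The log2 fold was 1.02 ± 0.11 (SE, limma adjusted p = 2.33e-05). Control rat 1 was the lowest of the 14 rats, and without it the log2 fold was 0.93, the smallest value when each rat was left out in turn.

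Ugp2 values ran from 10.52 through a median of 10.87 to 11.20 in controls, and from 11.60 through 11.84 to 11.92 in extract rats. Again the groups were separate, here by 0.41. Group means were 10.88 ± 0.25 and 11.81 ± 0.11 (SD, n = 7 each). The log2 fold was 0.94 ± 0.10 (SE, limma adjusted p = 1.23e-05). The rat with the lowest Ugdh value, control rat 1, had the highest Ugp2 value among controls. The folds of the 2 supply genes were not told apart: Ugdh minus Ugp2 was 0.08 ± 0.20 (SE) on the log2 scale.

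Ugt2b37, a Ugt2b transferase of the chromosome 14 cluster, had the largest fold among the transferases with a probe of their own. Its lowest, median and highest values were 8.74, 9.28 and 9.62 in controls and 9.56, 9.86 and 10.20 in extract rats. The groups overlapped slightly, with 6 of 7 extract rats above every control. The log2 fold was 0.62 ± 0.14 (SE, limma adjusted p = 0.0199). Controls spread widely for this gene (SD 0.35, n = 7), with control rats 5 and 7 at 8.86 and 8.74. The unequal-variance test per gene did not call it (adjusted p = 0.103).

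Ugt2a3, whose human counterpart conjugates bile acids, ran from 10.43 through 10.79 to 10.99 in controls and from 11.00 through 11.30 to 11.81 in extract rats. All extract rats lay above all controls, but by 0.01 only. Its log2 fold was 0.53 ± 0.12 (SE, limma adjusted p = 0.0158), and the unequal-variance test per gene did not call it (adjusted p = 0.0793). Extract rat 5 was the highest at 11.81 and extract rat 4 the lowest of its group at 11.00.

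Ugt2b35 values were 10.85, 11.20 and 11.51 (lowest, median, highest) in controls and 11.40, 11.60 and 11.92 in extract rats. Of the extract rats 5 lay above every control, and the overlap came from control rat 1, which was the highest control. The log2 fold was 0.41 ± 0.10 (SE, limma adjusted p = 0.0247). This call was lost without control rat 2 (adjusted p = 0.0564) and without extract rat 2 or 5 (0.0522 and 0.0545). The unequal-variance test per gene (0.0818) and adjustment over every probe of the table (0.0521) did not call it either.

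Ugt2b1, a drug-conjugating enzyme of rat liver that is known to be inducible by phenobarbital, ran from 11.75 through 11.95 to 12.07 in controls and from 12.13 through 12.26 to 12.56 in extract rats. The groups did not overlap, with 0.06 between them. Group means were 11.94 ± 0.12 and 12.32 ± 0.17 (SD, n = 7 each). The log2 fold was 0.37 ± 0.08 (SE, limma adjusted p = 0.0142). It was the only transferase of the 8 that passed under each of the limma settings tried, when each rat was left out and in the unequal-variance test (adjusted p from 0.00478 to 0.0466). In all, 4 of the 10 genes (Ugdh, Ugp2, Ugt2a3 and Ugt2b1) had every extract rat above every control, compared with 1.09% of all genes, and 0 had every extract rat below every control (0.455% of all genes).

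Ugt2b, the rat transferase of androsterone, also listed as Ugt2b2, differed little. Its values were 11.59, 11.94 and 12.11 (lowest, median, highest) in controls and 11.88, 11.98 and 12.13 in extract rats. Only 1 extract rat lay above every control. The log2 fold was 0.09 with a 95% confidence interval of -0.07 to 0.25 (limma adjusted p = 0.665), or 0.951 to 1.19 as a ratio of extract to control.

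The remaining 3 transferases had control means of 3.04 to 3.67, lower than the median control value over all probes (5.10), and RMA can understate folds near background. Ugt2a1, known from the olfactory epithelium, went from 3.04 ± 0.05 to 3.25 ± 0.09 (SD, n = 7 each). Its log2 fold of 0.21 did not pass (limma adjusted p = 0.055), although 6 of 7 extract rats lay above every control. It did pass without extract rat 4 (0.0301), and the limma adjusted p over settings ranged from 0.0219 to 0.126. Ugt2b7 ran from 3.48 to 3.96 in controls and from 3.66 to 4.05 in extract rats, with a log2 fold of 0.18 (limma adjusted p = 0.28). Ugt8, which makes galactosylceramide for myelin and does not use UDP-glucuronate, had means of 3.16 and 3.13 and a log2 fold of -0.03 (limma adjusted p = 0.913).

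**Figure D2:**
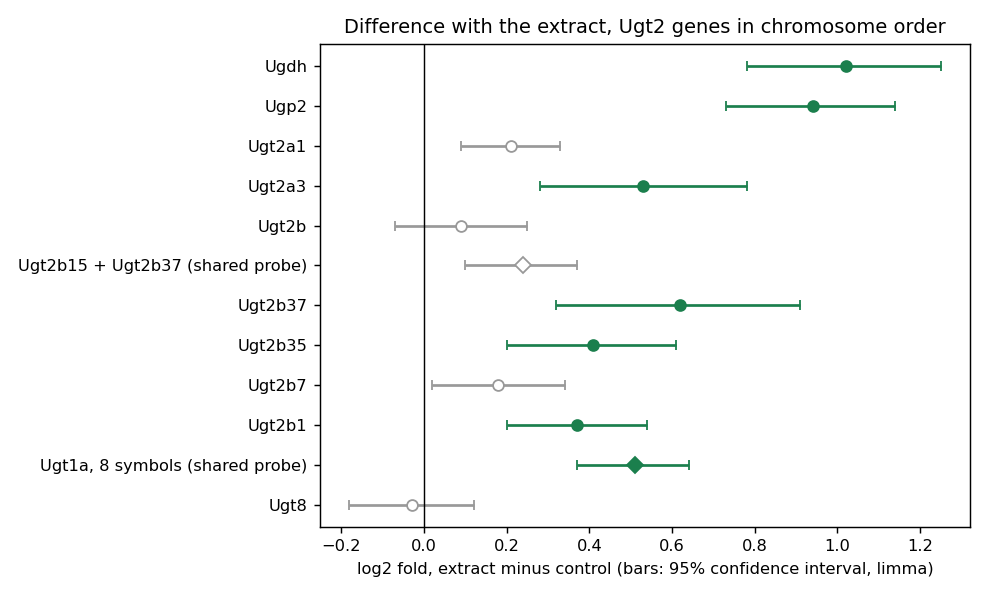
Log2 fold of extract minus control (x axis) with limma's 95% confidence interval for each glucuronidation gene and for 2 probes shared between Ugt genes (diamonds). Filled green marks passed an adjusted p of 0.05, over all genes for single-symbol probes and over all probes for shared ones. Ugt2b lies near 0, between Ugt2a3, which rose, and the probe shared by Ugt2b15 and Ugt2b37, which did not pass.

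Whether the folds differed from gene to gene was tested for the 7 genes with control means above the median probe. The per-rat difference between 2 genes was compared between groups by a two-sided exact permutation test, a comparison added after the data had been seen. Of the 21 pairs, 12 differed at a Benjamini-Hochberg adjusted p under 0.05. The fold of Ugt2b was smaller than that of Ugt2b1 by 0.28 ± 0.07 (SE, exact permutation adjusted p = 0.00612, 6 of 7 extract rats beyond every control). It was also smaller than that of Ugt2b35 by 0.32 ± 0.07 and that of Ugt2b37 by 0.53 ± 0.13 (exact permutation adjusted p = 0.00612 for both). Ugp2 rose more than Ugt2b1, by 0.56 ± 0.10, and more than Ugt2b35, by 0.53 ± 0.05 (exact permutation adjusted p = 0.00306 for both, the smallest these permutations gave). Ugdh rose more than Ugt2b1 by 0.64 ± 0.15 (exact permutation adjusted p = 0.00612) and more than Ugt2a3 by 0.48 ± 0.18 (exact permutation adjusted p = 0.0337). The difference between Ugdh and Ugt2b37 was 0.40 ± 0.23 (exact permutation adjusted p = 0.145). Among the 4 transferases that rose, 0 of 6 pairs passed, the closest being Ugt2b35 against Ugt2b37 (0.21 ± 0.09, exact permutation adjusted p = 0.0691). Probes differ in how far they compress a change, and the part of this in the differences was not tested.

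Values that shared exons or sequence could not be assigned to 1 gene. A probe annotated with 8 Ugt1a symbols, from Ugt1a1, the enzyme of bilirubin, to Ugt1a9, ran from 10.28 through 10.41 to 10.60 in controls and from 10.75 through 10.94 to 11.02 in extract rats. Every extract rat exceeded every control, and the log2 fold was 0.51 ± 0.07 (SE, limma adjusted p = 0.000488 over all 29215 probes, of which 0.907% passed upward). Which of the 8 first exons contributed was not tested. A probe shared by Ugt2b15 and Ugt2b37 went from 12.53 ± 0.13 to 12.76 ± 0.07 (SD, n = 7 each). Its log2 fold of 0.24 did not pass over all probes (limma adjusted p = 0.0923), although its groups did not overlap. The single-symbol probe of Ugt2b37 had the larger log2 fold of 0.62. The Ugt2b genes are close paralogues, and how far the probes separate them was not tested.

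Within groups the genes did not vary as one block. Deviations from the group mean were correlated over the 14 rats at r = 0.84 for Ugt2b35 and Ugt2b37, 0.87 for Ugp2 and Ugt2b35, and 0.76 for Ugp2 and Ugt2b37. Ugdh and Ugp2 had r = -0.64. Within the 7 extract rats Ugp2 and Ugt2b37 had Pearson r = 0.92 and Spearman rho = 1.00 (exact permutation p = 0.000397 for both; adjusted over 42 relations, 0.0167 for r), and r = 0.88 without the 2 rats farthest from the Ugp2 median. Within the 7 controls the pair had r = 0.72 and rho = 0.68 (exact permutation p = 0.0817 and 0.11; adjusted 0.312 for r), and r = 0.87 without 2 rats. Ugp2 and Ugt2b35 had r = 0.91 in controls and 0.85 in extract rats (exact permutation adjusted p = 0.0444 and 0.0167), with rho = 0.93 and 0.96 (exact permutation p = 0.00675 and 0.00278). Without the 2 farthest rats r was 0.98 and 0.80. For Ugdh and Ugp2 in controls r was -0.67 and rho -0.61 (exact permutation p = 0.0909 and 0.167; adjusted 0.318 for r), and r = -0.14 without control rats 1 and 2, so in controls the relation rests on those rats. In extract rats r was -0.54 and rho -0.32 (exact permutation p = 0.233 and 0.498; adjusted 0.425 for r), and r = -0.61 without the 2 farthest rats. In all, 3 of the 42 relations passed. Control rat 7 was the lowest control for Ugt2b, Ugt2b1, Ugt2b35 and Ugt2b37, and extract rat 5 the highest of all 14 rats for Ugt2a3, Ugt2b1 and Ugt2b37. All values of a rat come from 1 array.

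**Figure D3:**
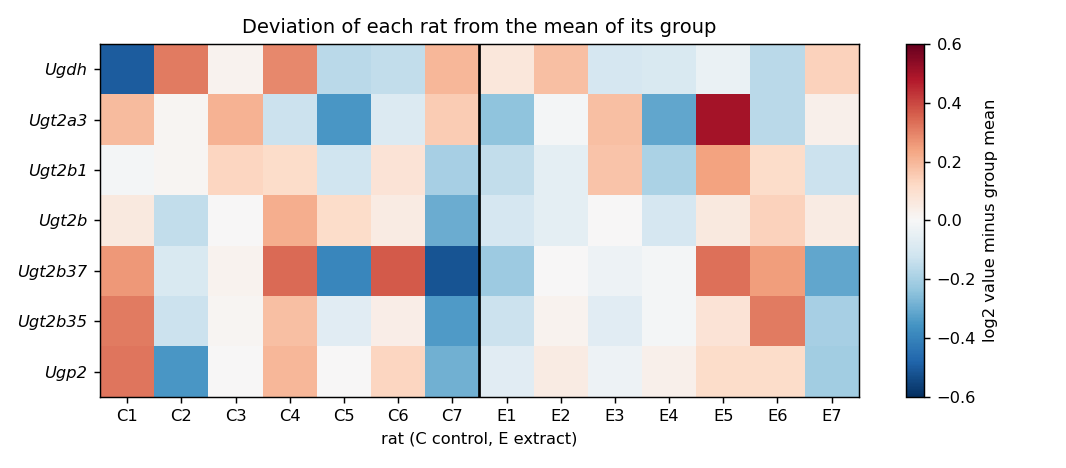
Log2 value of each rat minus the mean of its own group (colour) for the 7 glucuronidation genes above the median probe (rows) in control rats C1 to C7 and extract rats E1 to E7 (columns). Ugt2b37, Ugt2b35 and Ugp2 are low together in C7, E1 and E7, among others, and high together in C1, C4, E5 and E6, among others. By contrast, Ugdh is lowest in C1, where Ugp2 is highest among controls.

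Over all 14 rats, the genes whose values were most like those of Ugp2 were Aldh1a1 (retinaldehyde dehydrogenase, r = 0.977), Me1 (malic enzyme, r = 0.963) and Car2 (carbonic anhydrase, r = 0.952). For Ugdh they were Slc17a3 (an organic anion transporter, r = 0.957), Txnrd1 (thioredoxin reductase, r = 0.952) and Pycr1 (an enzyme of proline synthesis, r = 0.930). For Ugt2b1 they were Akr1c12 (r = 0.918), Omd (r = 0.907) and Slc17a1 (r = 0.906). Each of these 9 genes also passed upward, and r over both groups carries that shared difference. On deviations from the group means the leading genes were others: Mgst2 for Ugp2 (r = 0.911), Prkcz for Ugdh (r = 0.927) and Dynlt3 for Ugt2b1 (r = 0.877). These are descriptions over 14 arrays, ranked among all genes.

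Genes around the transferases moved less uniformly. Of 57 genes listed in 7 groups, 48 were measured, of which 6 rose, 1 fell and 41 did not pass. The median log2 fold of these 48 was 0.06, and 0.00 over all genes. Over all genes tested, 2.00% passed upward and 1.15% downward, also the shares to set beside the counts of each list below. The lists were chosen with earlier results of these data known. In the group that makes UDP-glucose or competes for it, limma called 0 of 10 genes (3 had an unadjusted p under 0.05, and the unequal-variance test called 0). The phosphoglucomutase Pgm1, which makes the substrate of Ugp2, had a log2 fold of -0.07 (95% confidence interval -0.31 to 0.17). The smallest p belonged to Gbe1, the glycogen branching enzyme (log2 fold 0.33, limma adjusted p = 0.0601; 0.0468 and 0.0407 without control rat 5 or 6). In the group listed for UDP-sugar transport into the endoplasmic reticulum limma called 0 of 4 genes (0 at an unadjusted p under 0.05, and 0 in the unequal-variance test). What each of these genes carries, and across which membrane, was not tested. The smallest p in this group belonged to Slc35a3 (log2 fold 0.15, limma adjusted p = 0.465). Slc35d1, the carrier of UDP-glucuronate, had means of 7.11 ± 0.36 and 7.36 ± 0.32 (SD, n = 7 each).

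On the route from glucuronate to vitamin C or back to sugar metabolism, 1 of 8 genes rose and 0 fell. This was Cryl1, the gulonate dehydrogenase that leads glucuronate carbon away from vitamin C. Its values ran from 7.55 through 7.97 to 8.59 in controls and from 9.19 through 9.95 to 10.40 in extract rats. The groups were fully separate, and the fold was 3.58 (log2 fold 1.84 ± 0.17 SE, limma adjusted p = 3.12e-06). Gulo, the oxidase that completes vitamin C synthesis, went from 11.77 ± 0.22 to 11.39 ± 0.22 (SD, n = 7 each), with 6 of 7 extract rats below every control. Its log2 fold of -0.38 did not pass (limma adjusted p = 0.063). Leaving out control rat 1 gave 0.0401 and leaving out extract rat 7 gave 0.027. Akr1a1, which reduces glucuronate to gulonate, had a log2 fold of 0.07.

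In the group listed for glucuronide cleavage 2 of 4 genes rose: the carboxylesterases Ces1d (1.98-fold, limma adjusted p = 6.26e-06) and Ces1f (2.05-fold, 2.29e-07), enzymes known for cleaving esters and not as glucuronidases. Gusb, the lysosomal beta-glucuronidase, had a log2 fold of 0.01 (95% confidence interval -0.15 to 0.16), and Abhd10, which cleaves acyl glucuronides, of -0.09. Among 6 carriers of glucuronides 2 rose and 1 fell. Abcc3, which exports glucuronides into blood, ran from 7.63 to 8.18 in controls and from 9.55 to 10.44 in extract rats, a 3.92-fold difference (limma adjusted p = 5.59e-08). Abcc2, the exporter into bile, rose 1.26-fold (limma adjusted p = 0.0478), a call that did not hold in 10 of the 14 fits with 1 rat left out (controls 3 to 7 and extract rats 1, 2, 3, 6 and 7, with adjusted p between 0.0501 and 0.107). The Abcc2 call was also lost with repeated quantile normalization (limma adjusted p = 0.0813), median centring (0.0624), every probe tested (0.0879) and the rat number as a block (0.0981). The unequal-variance test per gene did not call Abcc2 either (adjusted p = 0.119). Abcg2, an exporter of sulfates and glucuronides, fell from 6.78 ± 0.24 to 6.19 ± 0.26 (SD, n = 7 each; log2 fold -0.59, limma adjusted p = 0.0094), with 6 of 7 extract rats below every control. The unequal-variance test per gene did not call Abcg2 (adjusted p = 0.052).

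Of 12 transcriptional regulators of Ugt genes, 1 rose and 11 did not pass. Nr1i3, which encodes the drug sensor CAR, was at most 5.24 in controls and at least 6.88 in extract rats, a log2 fold of 2.38 (limma adjusted p = 6.37e-09). Its control mean of 5.08 lay just below the median control value over all probes (5.10). Nr1i2, which encodes the related sensor PXR, had a log2 fold of -0.16 and Ahr, the aryl hydrocarbon receptor, of 0.16. Nfe2l2, which encodes NRF2, had a log2 fold of -0.27 (limma adjusted p = 0.135). Among heme-degrading enzymes upstream of bilirubin limma called 0 of 4 (0 at an unadjusted p under 0.05, and 0 in the unequal-variance test), with Hmox1 at -0.17.

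**Figure D4:**
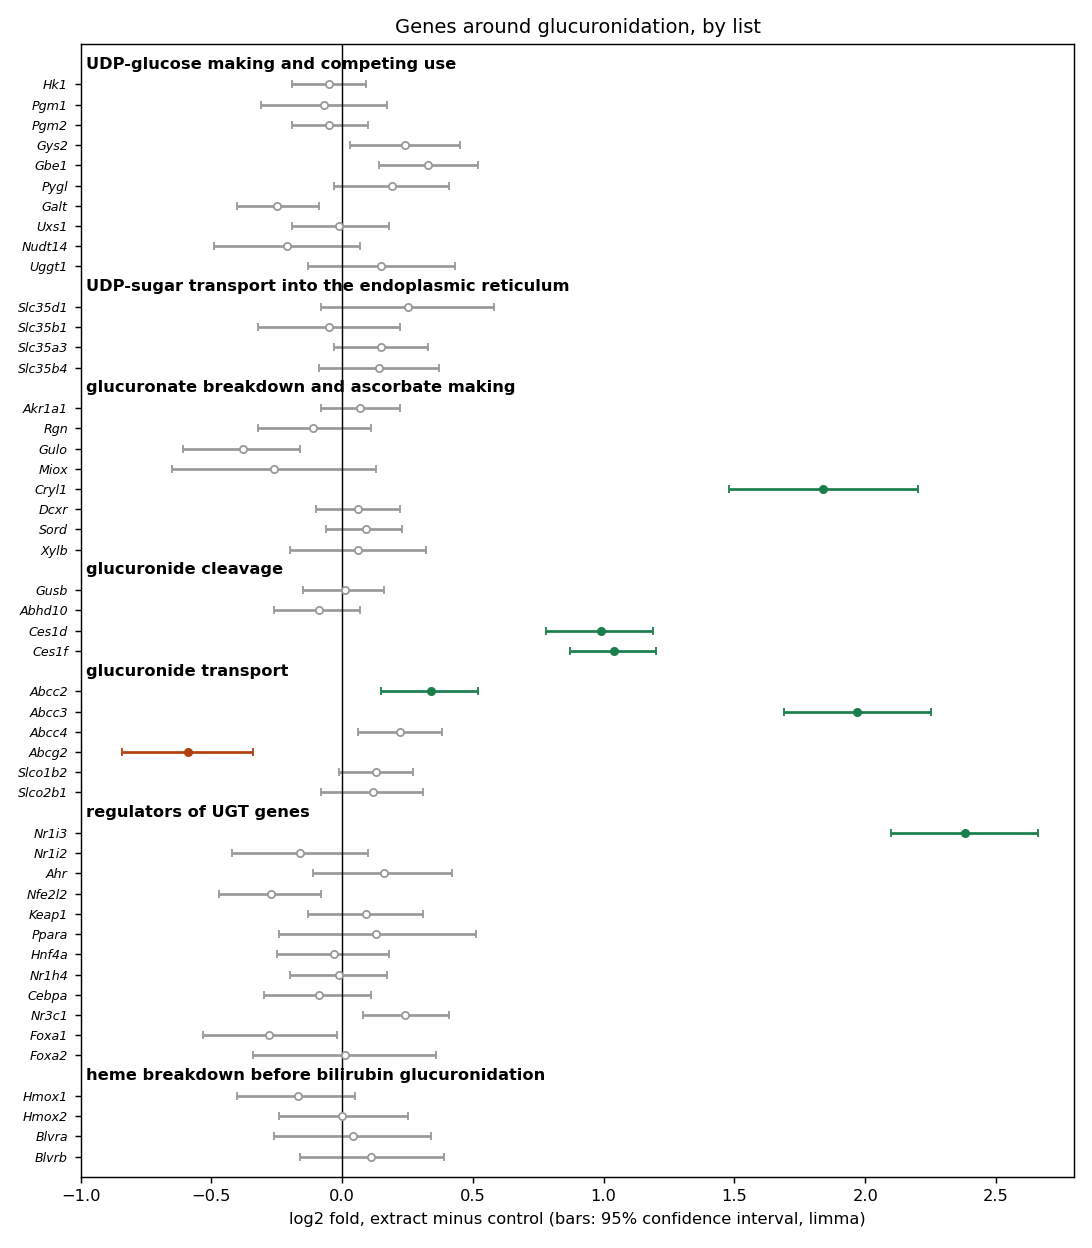
Log2 fold of extract minus control (x axis) with limma's 95% confidence interval for the 48 measured genes around glucuronidation, grouped by list. Filled marks passed an adjusted p of 0.05 (green higher, orange lower); Cryl1, Abcc3, Nr1i3, Ces1d and Ces1f stand far to the right, Abcg2 to the left.

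The liver label was checked against cell markers. All 10 hepatocyte markers, Alb and Apoa1 among them, had control means above the median probe, and limma called 0 of 10 (0 at an unadjusted p under 0.05, and 0 in the unequal-variance test). Their mean log2 level lay between 12.79 and 12.93 in controls and between 12.77 and 12.87 in extract rats. Markers of Kupffer cells moved with the extract: 2 of 10 fell (1.15% of all genes), and all 10 folds were negative (50.3% of all genes). Those that fell were Marco and Vsig4, with log2 folds of -0.73 and -0.51 (limma adjusted p = 0.00586 and 0.0243). The mean level of the 10 markers was 8.68 to 8.93 in controls and 8.21 to 8.66 in extract rats. At an unadjusted p under 0.05, 9 of the 10 were lower (7.40% of all genes), and the unequal-variance test called 1, Marco (0.386% of all genes lower). Marco and Clec4f had every extract rat below every control (0.455% of all genes). The call of Vsig4 was lost without extract rat 1 or 2 (adjusted p = 0.0542 and 0.0617), over every probe (0.0544) and in the unequal-variance test (0.0972). Of 7 stellate cell markers 1 fell, Pdgfrb (log2 fold -0.37, limma adjusted p = 0.0415), a call lost without any of 11 rats, all but control rats 1 and 4 and extract rat 6 (0.0512 to 0.0866). It was also lost over every probe (0.0788) and in the unequal-variance test (0.116), among other settings, and 3 of the 7 had an unadjusted p under 0.05. Their mean level was 7.31 to 7.57 in controls and 7.06 to 7.31 in extract rats. Of 4 intestinal markers 1 fell, Fabp2 (log2 fold -0.81, limma adjusted p = 0.0235), a call that needed controls 2, 3 and 7 and extract rats 1 and 2 (0.0508 to 0.0593 when one was left out), and that was also lost over every probe (0.0553), with the replicate block (0.0981) and in the unequal-variance test (0.112). The 4 intestinal markers had a mean level of 4.87 to 5.15 in controls and 4.72 to 4.91 in extract rats. Fabp2 itself lay higher, at 8.48 ± 0.46 in controls and 7.67 ± 0.37 in extract rats (SD, n = 7 each). In the bile duct, endothelial, lymphocyte, and pancreas and kidney lists limma called 0 of 19 genes (3 at an unadjusted p under 0.05, and 0 in the unequal-variance test). All 4 endothelial markers among them had negative folds, with a median of -0.19. At limma's unadjusted p under 0.05, 2 of these 4 were lower (Kdr and Pecam1, log2 folds -0.23 and -0.24). The bile duct marker Krt7 was higher at that threshold (log2 fold 0.23). RMA values have no zero, and 3 of the 4 intestinal markers, 3 of 5 pancreas and kidney markers, 4 of 5 bile duct markers and 3 of 5 lymphocyte markers lay below the median probe. In whole liver, fewer cells of a type and less RNA per cell cannot be told apart, and the part of these shifts in the glucuronidation genes was not tested. Across genes, r between any pair of arrays was 0.984 to 0.997. Control rat 1 and extract rat 4 had the lowest limma array weights (0.41 and 0.463). Without both, 7 of the 10 genes rose, the 6 named above and Ugt2a1, and 0 fell.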

How the data were processed

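Total liver RNA of 14 rats was hybridised to whole-transcript Affymetrix arrays, 1 per rat. The deposited values are log2 expression values; the submitters' processing notes name Affymetrix Expression Console 1.1.2 and RMA. Options and genome build are not given in the sources used here. The log2 scale was read from the range (1.95 to 14.01); array medians ran from 5.02 to 5.15. No scan date or batch was used.

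Gene names came from GEO's annotation of the platform: 15310 of 29215 had 1 symbol, 323 several, and 13582 none. Through Entrez identifiers 15279 were found in RefSeq's GRCr8 table, and 0 symbols changed. The brightest probe per gene gave 14506 genes, with no filter on dim probes.

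Groups came from sample titles. limma 3.58.1 (lmFit, eBayes; R 4.3.3) compared them with no covariate, Benjamini-Hochberg adjusted over all genes at 0.05. Errors of folds are limma's SE. Those of gene pairs come from both groups' SDs. Permutation tests between groups enumerate 3432 assignments, so their p cannot go below 0.000583. Those of correlations within a group reorder the rats of that group instead, and their p can be smaller. The median SE of a log2 fold was 0.0867; the number of arrays limits the precision. On simulated data with 14506 genes, 84% of genes changed by 0.5 (log2) and 100% of those changed by 1 were recovered, and 6.94% of calls were false. Rat numbers are shared by the groups, but the labels tie no control to an extract rat, so no block was used.

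Named genes are all 10 glucuronidation genes, up to 4 called genes of each surrounding list (or the one with the smallest p), the genes most alike, and markers; further genes, among them Pgm1, Slc35d1, Gulo, Akr1a1, Gusb, Abhd10, Nr1i2, Ahr and Nfe2l2, were named after their values were seen, for their role. The genes and lists were chosen with earlier results of these data known. Alternatives were other normalizations, 2 filters on dim genes, other probe rules, variance models, array weights, the rat number as a block, another threshold and leaving out each rat. The fit without 2 arrays and the pair tests were added later. Python 3.11.15, pandas 2.3.3, scipy 1.17.1 and matplotlib 3.10.9 were used.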

Additional observations from a re-analysis of the deposited data

Results flagged for a closer look

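Ugt8 in control rat 5 was 2.83, far below the other controls, whose lowest was 3.15. The gap made up 0.605 of the range of the group, above Dixon's 95% critical value for 7 samples. Of 24 groups of 7 rats examined in this way, 1 was singled out, and chance gives about 1 in 20. Both group means of Ugt8 lay below the median of all probes.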

How the results depend on the processing

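The count of glucuronidation genes that rose was 6 in the analysis reported and 4 to 7 under the alternatives, and the count that fell was 0 throughout. An adjusted p of 0.1, repeated quantile normalization, array weights, an intensity trend with robust variance, and the fit without 2 arrays gave 7, adjustment over every probe gave 5 and the unequal-variance test 4. Leaving out each rat gave 5 to 7. Of 254 comparisons of a gene's log2 fold with an alternative, 238 kept direction and side of the threshold. In 7 a call was lost (Ugt2b35 in 5, Ugt2a3 and Ugt2b37 in 1 each) and in 6 one was gained, all for Ugt2a1. In the exact permutation test, whose p is not adjusted over genes, Ugt2a1 (p = 0.00117) and Ugt2b7 (p = 0.0408) fell under 0.05, as they did by limma's unadjusted p. In 1 the sign changed: Ugt8 was 0.0044 without control rat 7, and -0.08 to 0.0044 over all rats left out in turn. Filters on a mean of at least 6 or at least the median gene left out Ugt2a1, Ugt2b7 and Ugt8. With the rat number as a replicate block 6 genes rose and 0 fell. Deviations of same-numbered rats correlated between -0.46 and 0.28, over 0.1 in 4 of 7 pairs, and 2 of 7 controls were closest to their own number, so the numbers were not taken to pair rats. Folds of dim genes are limited by signal near background.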
